A study of Sus scrofa with 10 samples.

Results

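A set of 10 immediate early genes that encode transcription factors or nuclear regulators, FOS, FOSB, JUN, JUNB, EGR1, ATF3, NR4A1, NR4A2, NR4A3 and IER2, was examined in the ovary of gilts with and without rpFSH, a recombinant porcine follicle-stimulating hormone. Each gene was taken as the protein-coding locus of that name, or the one with the largest summed count where several carried it. Of the 10 symbols, 9 had such a locus among the 19972 protein-coding loci of the 43499 loci in the deposited table, and 8 of these had counts and could be tested. All 10 gilts shared a genetic background and were fed altrenogest, a progestin that delays oestrus, from day 210 of life (20 mg daily, 18 days), followed by 2 days without it. An injection of 1000 IU of rpFSH, expressed in CHO cells, was given to 5 gilts, and the 5 gilts of the control group were given saline. The ovaries were sampled at an age of 234 days, once their surface follicles had been taken off, so the largest follicles were not part of the tissue, and 1 library was made per pig. The treatment is spelled rpFSH, reFSH or fpFSH in different places of the labels. The day of injection is not written there, but the days without altrenogest ended at day 230, 4 days before the collection.

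Immediate early genes are transcribed within minutes of a signal, without new protein synthesis, through factors such as SRF, the ELK proteins and CREB that are already in the nucleus. FOS, FOSB, JUN and JUNB form the AP-1 dimers and ATF3 is a related leucine zipper factor, EGR1 is a zinc finger factor, and NR4A1 to NR4A3 are orphan nuclear receptors. In the ovary they are known for their rapid induction by gonadotropins, and EGR1 and the NR4A receptors act on genes of ovulation and of steroid synthesis. Their transcripts are short-lived and also respond to tissue handling. The labels state that the ovaries were frozen at once, without a time.

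Total counts were between 64873797 and 75114003 per pig. The tissue contained granulosa, theca, stromal, smooth muscle and vascular markers in every pig, but several libraries stood apart. The summed FPKM (fragments scaled by the length of the locus and by sequencing depth) of 6 theca and luteal markers was 2303 in control replicate 2, 1273 in rpFSH replicate 1 and 351 in rpFSH replicate 4, against 18.3 to 271 in the other 7 pigs. STAR, which carries cholesterol into the mitochondrion, stood at 532, 448 and 121 FPKM in these 3 pigs. CYP11A1, the side-chain cleavage enzyme that starts steroid synthesis, stood at 1758, 787 and 178 FPKM, and STAR and CYP11A1 made up most of the sums. The theca marker INSL3 was not high there, at 0.351, 17.1 and 30.5 FPKM against 2.79 to 181 in the other 7 pigs. Of the remaining theca and luteal markers only LHCGR in rpFSH replicate 1, at 7.32 FPKM, lay above the other 7 pigs. The sum of 5 smooth muscle markers was 1789 in control replicate 5 and 65.3 to 484 elsewhere, and that of 7 ciliated epithelium markers was 44.7 in control replicate 2 and 108 in control replicate 5 against 5.95 to 8.75 elsewhere. No difference between the groups was detected for any of the 10 marker sums (two-sided exact permutation tests, p between 0.151 and 0.754). With 5 pigs per group and this spread, the tests do not show that the composition was equal. In whole ovary RNA, fewer cells of a type and less RNA per cell cannot be told apart. The part of cell composition in the results that follow was not tested. Pigs are left out below, but this does not test composition, since they were chosen with their values known.

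The rpFSH mean was higher than the control mean for 7 of the 8 tested genes, but the groups overlapped for all 8, and 0 of 8 were differentially expressed (DE). NR4A1 and NR4A3 came nearest. A gene counted as DE where its limma P was under 0.05 before adjustment and its group mean FPKM differed by more than 1 on the log2 scale, in the limma fit of log2 (FPKM + 1). This fit took in 15170 protein-coding loci, those whose FPKM averaged 0.1 or more. By this rule 1.13% of all tested loci were DE, 0.25% higher and 0.883% lower in the rpFSH treatment group. This split depended on scaling: after quantile normalization 0.514% were higher and 0.633% lower. An unadjusted limma P under 0.05 was reached by 1 of the 8 genes, NR4A1, against 3.03% of all tested loci, or 0.817% in the higher direction, and every limma adjusted p of the 8 genes was 1.00. By edgeR on the counts 0 of 8 had P under 0.05 (4.73% of all tested loci) and 0 were called (3.12%). By DESeq2 2 of 8 had P under 0.05, NR4A1 and NR4A3 (6.04%), and NR4A3 was called (3.47%).

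**Figure D1:**
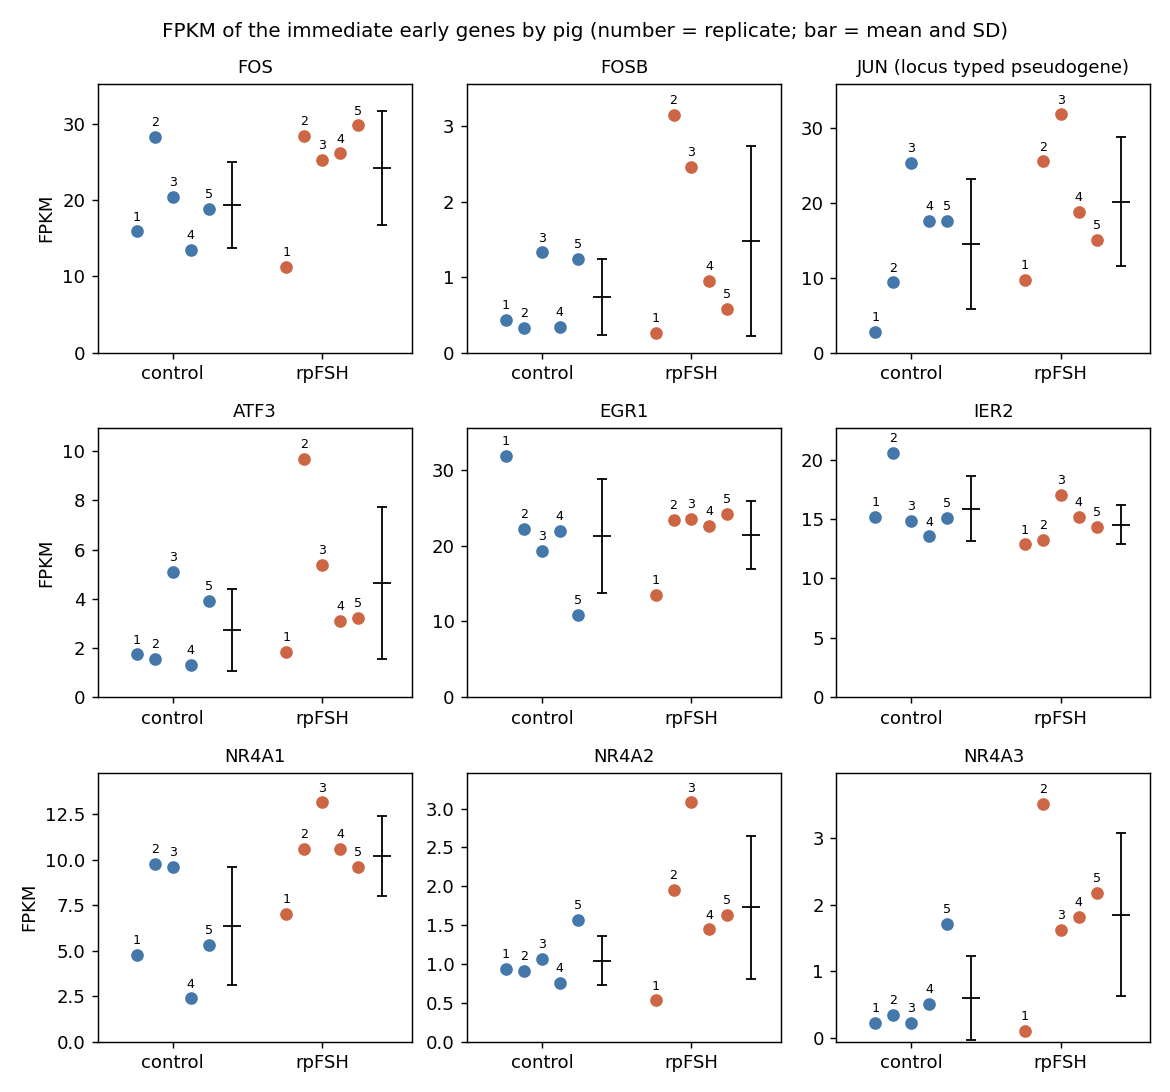
FPKM (linear axis from 0, or just below it where the SD reaches under 0) of the 8 tested genes and the JUN locus in each pig, blue for control and orange for rpFSH, with the replicate number over each point and the mean and SD (n = 5) as a black bar. The groups overlap in every panel, and rpFSH replicate 1 is the lowest rpFSH pig in each of the 9.

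The AP-1 genes are described first. FOS encodes the founding partner of JUN in the AP-1 dimer, and its locus lay at chr7:98449508-98453576 on the plus strand of Sscrofa11.1. FOS measured 15.9, 28.3, 20.4, 13.4 and 18.9 FPKM in control replicates 1 to 5 and 11.3, 28.5, 25.3, 26.1 and 29.8 FPKM in rpFSH replicates 1 to 5. All rpFSH pigs but 1 stood above the control median and control replicate 2 stood among them, while rpFSH replicate 1 was the lowest of the 10 pigs. The means were 19.4 ± 5.66 and 24.2 ± 7.46 FPKM (SD, n = 5 each), a log2 ratio of 0.32. The limma difference of log2 (FPKM + 1) was 0.28 ± 0.27 (SE), with a 95% interval from -0.33 to 0.88 (limma P = 0.333, exact permutation p = 0.381).

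FOSB, at chr6:51837731-51844530 on the plus strand, encodes a FOS relative that was among the least abundant of the genes. FOSB measured 0.436, 0.326, 1.33, 0.346 and 1.24 FPKM in the control pigs and 0.258, 3.15, 2.45, 0.947 and 0.581 FPKM in the rpFSH pigs, in replicate order. The rpFSH mean was carried by replicates 2 and 3, and the other 3 rpFSH pigs lay within the control range or below it. Its means of 0.735 ± 0.503 and 1.48 ± 1.26 FPKM gave a log2 ratio of 1.01, past the fold limit, with limma P = 0.243 and exact permutation p = 0.333. With 1 pig left out the ratio lay between 0.53 (without rpFSH replicate 2) and 1.33, within the fold limit in 5 of 10 analyses. It was counted 83 to 1035 times per pig, so counting error was small beside the spread between pigs.

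ATF3 encodes a leucine zipper factor of cell stress that pairs with JUN proteins, and its locus lay at chr9:130772262-130785570 on the minus strand. ATF3 measured 1.74, 1.56, 5.08, 1.32 and 3.91 FPKM in the control pigs and 1.82, 9.69, 5.39, 3.10 and 3.22 FPKM in the rpFSH pigs. Control replicates 3 and 5, which were also the 2 highest controls for FOSB, stood above 3 of the rpFSH pigs, and rpFSH replicate 2 was the highest of all. The means of 2.72 ± 1.68 and 4.65 ± 3.10 FPKM gave a log2 ratio of 0.77 and a limma difference of 0.56 ± 0.38 (limma P = 0.172, exact permutation p = 0.238).

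JUN, the main partner of FOS, had no locus that met the rule. The deposited table holds its Ensembl identifier, ENSSSCG00000031912, on a locus typed as a pseudogene at chr6:153685397-153690051, which contains the RefSeq JUN gene of the same assembly. Outside the rule, this locus measured 2.76, 9.37, 25.3, 17.6 and 17.6 FPKM in the control pigs and 9.75, 25.5, 31.8, 18.7 and 15.1 FPKM in the rpFSH pigs. Control replicate 1 was the lowest and rpFSH replicate 3 the highest, and control replicate 3 stood above 3 of the rpFSH pigs (log2 ratio of the means 0.47, two-sided exact permutation p = 0.317). JUNB, a JUN relative that forms weaker activating dimers, was listed at 0 in all 10 pigs. Its locus at chr2:66214594-66215637 on the minus strand lies inside a merged PRDX2 and HOOK2 locus of the plus strand, and 1768 protein-coding loci were listed at a count of 0 in every pig, so nothing can be said of JUNB expression.

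EGR1, the zinc finger factor, had nearly equal means in both groups. EGR1 measured 31.8, 22.2, 19.3, 22 and 10.9 FPKM in the control pigs and 13.5, 23.4, 23.5, 22.6 and 24.2 FPKM in the rpFSH pigs. The highest and the lowest pig were both controls, replicates 1 and 5, and 4 of the rpFSH pigs lay between 22.6 and 24.2 FPKM. Its means were 21.2 ± 7.50 and 21.4 ± 4.49 FPKM, with a log2 ratio of 0.01 and a limma difference of 0.06 ± 0.26 whose 95% interval ran from -0.51 to 0.63 (limma P = 0.828, exact permutation p = 0.849). The direction turned when single pigs were left out. The assembled locus at chr2:140438089-140471827 on the plus strand overlaps the end of ETF1 on the minus strand (3.35 to 5.80 FPKM), and the reads of the shared stretch may be split between them.

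The 3 NR4A genes encode nuclear receptors without a known natural ligand, whose activity depends largely on how much of the protein is made. All 3 had a higher mean in the rpFSH treatment group. NR4A1, also called NUR77, lay at chr5:17399324-17411053 on the plus strand and was the most abundant of the 3. NR4A1 measured 4.75, 9.76, 9.58, 2.37 and 5.29 FPKM in the control pigs and 7.01, 10.6, 13.1, 10.6 and 9.59 FPKM in the rpFSH pigs. All 5 rpFSH pigs stood above the control median and 3 above every control, and control replicates 2 and 3 reached the lower rpFSH values. Its means of 6.35 ± 3.22 and 10.2 ± 2.21 FPKM gave a log2 ratio of 0.68. The limma difference was 0.71 ± 0.30 with a 95% interval from 0.04 to 1.38 (limma P = 0.0401, adjusted p = 1.00, exact permutation p = 0.0635), below the fold limit. RefSeq types NR4A1 as a pseudogene on this assembly, whereas the deposited table types it as protein-coding.

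NR4A2, also called NURR1, lay at chr15:63485314-63505728 on the minus strand. NR4A2 measured 0.932, 0.906, 1.06, 0.753 and 1.57 FPKM in the control pigs and 0.532, 1.95, 3.08, 1.44 and 1.64 FPKM in the rpFSH pigs. Apart from rpFSH replicate 1, the lowest of all, the rpFSH pigs lay above 4 of the 5 controls, and control replicate 5 stood between them. The means were 1.04 ± 0.313 and 1.73 ± 0.921 FPKM, a log2 ratio of 0.73 (limma difference 0.36 ± 0.23, P = 0.143, exact permutation p = 0.175).

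NR4A3, also called NOR1, had the largest ratio of the 8 genes. Its locus lay at chr1:241569830-241613629 on the plus strand. NR4A3 measured 0.229, 0.343, 0.225, 0.509 and 1.72 FPKM in the control pigs and 0.10, 3.52, 1.63, 1.83 and 2.18 FPKM in the rpFSH pigs. The values fell apart into a low set, made of control replicates 1 to 4 and rpFSH replicate 1, and a high set, made of control replicate 5 and the other 4 rpFSH pigs. The means of 0.605 ± 0.633 and 1.85 ± 1.22 FPKM gave a log2 ratio of 1.61, past the fold limit. Without control replicate 5 this ratio was 2.50 and the gene was called, and over the 10 analyses with 1 pig left out it lay between 1.25 and 2.50. The limma difference was 0.76 ± 0.35 with a 95% interval from -0.02 to 1.54 (limma P = 0.0539, exact permutation p = 0.135). On the counts its log2 fold change was 1.74 by edgeR and 1.71 by DESeq2 (DESeq2 adjusted p = 0.590).

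IER2, a small nuclear protein of serum-stimulated cells, was the steadiest of the genes and the only one of the 8 with a lower rpFSH mean. Its locus lay at chr2:65910620-65911285 on the minus strand. IER2 measured 15.2, 20.6, 14.9, 13.5 and 15.1 FPKM in the control pigs and 12.9, 13.2, 17.1, 15.2 and 14.4 FPKM in the rpFSH pigs. Control replicate 2 stood above the other 9 pigs, which spanned 12.9 to 17.1 FPKM. Its means of 15.9 ± 2.73 and 14.5 ± 1.68 FPKM gave a log2 ratio of -0.13 and a limma difference of -0.11 ± 0.13, with a 95% interval from -0.40 to 0.18 (limma P = 0.420, exact permutation p = 0.413).

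**Figure D2:**
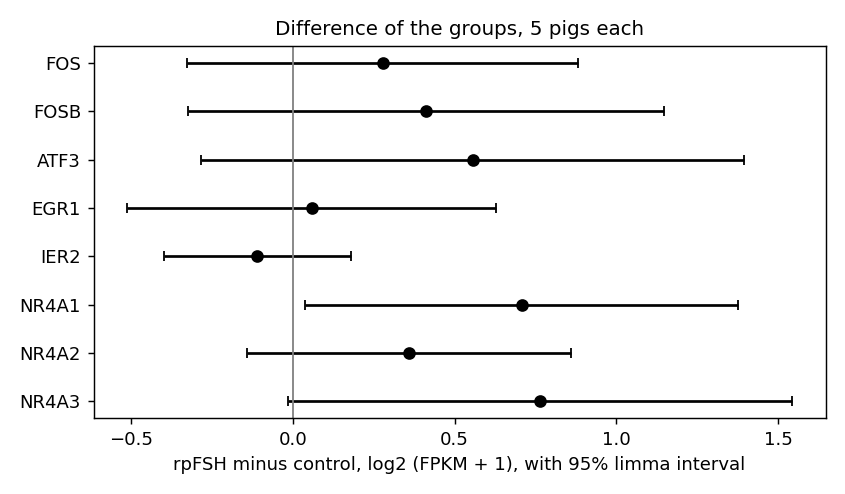
Difference between rpFSH and control in log2 (FPKM + 1) for the 8 tested genes, with the 95% limma interval (5 pigs per group). The interval leaves out 0 for NR4A1 alone, reaches it narrowly for NR4A3 (-0.02 to 1.54) and is centred near 0 for EGR1 and IER2.

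Across the 8 genes the median log2 ratio was 0.70, and over all tested loci it was -0.08 (0.84 and 0.00 after quantile normalization). Beside the 7 of 8 genes with a ratio above 0, 36% of all tested loci had one, and beside the 2 of 8 above 1 (FOSB and NR4A3), 1.65% did. Both shares are for FPKM as deposited, and the 36% depends on scaling as the median of all tested loci does. Complete separation of the groups was seen for 0 of 8 genes and for 0.0791% of all tested loci. The 8 genes were measured in the same 10 libraries and do not count as independent replicates of the treatment.

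One of the pigs, rpFSH replicate 1, was low for most of the genes. Of the 8 genes, 5 (FOS, FOSB, NR4A2, NR4A3 and IER2) were lowest in rpFSH replicate 1, in which 13.6% of all tested loci had their lowest value. The mean log2 (FPKM + 1) of the 8 genes was 2.11 in this pig and 2.83 to 3.26 in the other rpFSH pigs, against 2.13 to 2.67 in the controls. The same pig was 1 of the 3 with high STAR and CYP11A1. The others of the 3 were not as low: control replicate 2 stood at 2.55, the control median, and rpFSH replicate 4 at 2.83. The part of steroidogenic cells in the low values was not tested.

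When rpFSH replicate 1 was left out, NR4A3 was called DE with a log2 ratio of 1.92 (limma P = 0.00213, adjusted p = 0.869, exact permutation p = 0.0238), as 1.1% of all tested loci then were. FOS, NR4A1 and NR4A2 also had an unadjusted limma P under 0.05 (0.0224, 0.0282 and 0.0102, with exact permutation p of 0.0397, 0.0556 and 0.0238), making 4 of 8 genes where 4.54% of all tested loci reached it, 1.19% in the higher direction. Their log2 ratios of 0.50, 0.79 and 0.96 stayed below the fold limit. When all 3 pigs with high STAR and CYP11A1 were left out, 4 controls and 3 rpFSH pigs remained. NR4A1, NR4A2 and NR4A3 were then called DE, while 0.989% of all tested loci were. Their log2 ratios were 1.01, 1.04 and 1.87, with limma P of 0.0212, 0.0141 and 0.00982, adjusted p of 0.933 and exact permutation p of 0.0571, 0.0571 and 0.0857. FOS had a log2 ratio of 0.70 (limma P = 0.00286, exact permutation p = 0.0286, the smallest that this test can give with these pigs). These values show how far the test turns on 1 or 3 pigs and are not independent support for a difference. The choice of the 3 pigs was made after the values were seen. Since rpFSH replicate 1 was the lowest rpFSH pig for each of the 8 genes, leaving it out had to raise every rpFSH mean.

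By level, the order over the 10 pigs was FOS (mean of 21.8 FPKM), EGR1 (21.3), IER2 (15.2), NR4A1 (8.27), ATF3 (3.68), NR4A2 (1.39), NR4A3 (1.23) and FOSB (1.11). The steps from EGR1 down to NR4A2 held in 9 or 10 of 10 pigs, but FOS was above EGR1 in 7 pigs, NR4A2 above NR4A3 in 6 and NR4A3 above FOSB in 6, so these neighbours did not differ beyond their spread. FPKM is set by the length of the assembled locus. The ratio of count to FPKM, with the total count as depth, would imply 764 to 789 bases for IER2. For FOS it would imply 4161 to 4293 bases and for NR4A3 29171 to 30106. For ATF3 it would imply 15304 to 15798 bases and for NR4A1 12631 to 13052. For IER2, FOS, ATF3 and NR4A1 these values exceed the whole span of the locus, so they are not true lengths. By count, which is not corrected for length, the order was EGR1, NR4A1, FOS, ATF3, NR4A3, IER2, NR4A2 and FOSB, of which EGR1 over NR4A1, NR4A1 over FOS and NR4A3 over IER2 held in 6 of 10 pigs each and IER2 over NR4A2 in 7.

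Variation between pigs differed widely among the genes. The highest pig exceeded the lowest by 35.1 times for NR4A3, 12.2 times for FOSB, 7.37 times for ATF3, 5.79 times for NR4A2 and 5.54 times for NR4A1. For EGR1, FOS and IER2 the same ratio of FPKM was 2.93, 2.65 and 1.6, and the median over all tested loci was 2.75. A wider range than that of NR4A3 was found in 9.11% of the tested loci.

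Correlations between the genes across pigs were mostly positive, but few passed a test. Over the 28 pairs of the 8 genes, Pearson's r of log2 (FPKM + 1) across the 10 pigs ranged from -0.17 to 0.95 with a median of 0.49, and 24 pairs were positive. The median r of 1 of the 8 genes with any other tested locus was -0.08. The 15 pairs among FOS, FOSB, ATF3 and the NR4A genes had r between 0.41 and 0.95, whereas EGR1 reached only -0.03 to 0.36 with the others and IER2 -0.17 to 0.48. Without the 2 pigs farthest from the median of 1 gene of the pair, the 15 ran from 0.19 (FOS with FOSB) to 0.93 (NR4A2 with NR4A3). FOS with ATF3 then had 0.26 and FOS with NR4A1 0.81. With the group means subtracted, the median r of the 28 pairs was 0.44. The lowest of the 15, NR4A1 with NR4A3 (r = 0.41, rho = 0.479, adjusted permutation p = 0.433 and 0.360), then fell to 0.11.

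FOSB and ATF3 formed the closest pair. Their r was 0.953 and Spearman's rho 0.903, with permutation p of 1e-05, the smallest that 100000 permutations can give, and 0.00083 (0.00028 and 0.0232 after Benjamini-Hochberg adjustment over 28 pairs). Without the 2 pigs farthest from the median of FOSB r was 0.927, and with the group means subtracted it was 0.947. FOSB and NR4A2 had r = 0.824 and rho = 0.867 (adjusted permutation p = 0.0367 and 0.0307), falling to 0.676 without the 2 farthest pigs. ATF3 and NR4A2 reached an adjusted permutation p under 0.05 by rank only (r = 0.745, adjusted p = 0.0707, rho = 0.830, adjusted p = 0.0464), and no other pair did by either measure. NR4A2 and NR4A3, 2 receptors of the same family, had r = 0.784 and rho = 0.745 (adjusted permutation p = 0.0603 and 0.109).

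**Figure D3:**
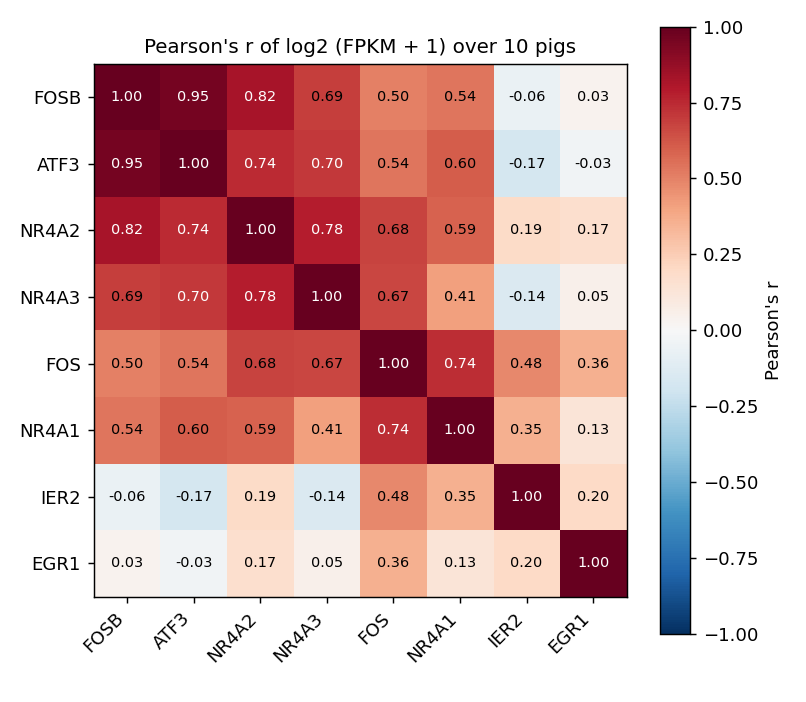
Pearson's r of log2 (FPKM + 1) across the 10 pigs for each pair of the 8 tested genes, on a colour scale from -1 (blue) to 1 (red). FOSB, ATF3, NR4A2, NR4A3, FOS and NR4A1 form a block of positive values between 0.41 and 0.95, and IER2 and EGR1 stand outside it. This grouping was made after the values were seen.

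Among the 10141 other protein-coding loci with a gene symbol and an average of 1 FPKM or more, those whose pattern over the 10 pigs was most like the mean of the 8 standardised genes were ABAT (r = 0.952), MNT (0.848), ZFP36 (0.843), a merged HOXD3 locus (0.825), MEF2A (0.825), SH3GLB1 (0.804), HOXD9 (0.799) and SHROOM4 (0.797). They were picked from all these loci for their r, so no test applies. An r above 0.8 was found for 6 of these loci and an r as strongly negative for 176. ZFP36, which encodes a protein that destabilises mRNA, is itself a primary response gene and was measured at 4.31 to 6.47 FPKM. None of the 8 had a limma P under 0.05 between the groups.

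The wider primary response was represented by 38 further genes, of which 36 were found and 35 tested. Of these, 1 was called DE and higher, GADD45B, 0 were called lower, and 4 had an unadjusted limma P under 0.05, all higher. Over all tested loci 0.25% were called higher and 0.817% had such a P in the higher direction. By the same limits edgeR called 4 of the list and DESeq2 5, beside 3.12% and 3.47% of all tested loci. The median log2 ratio of the list was 0.15 and 24 of 35 had a ratio above 0, against 36% of all tested loci. That share is for FPKM as deposited and depends on scaling. The median ratio of all tested loci was -0.08 as deposited and 0.002 after quantile normalization. GADD45B, a stress sensor that acts on p38 signalling, measured 0.757, 1.56, 1.19, 0.699 and 0.591 FPKM in the control pigs and 5.25, 1.70, 0.986, 2.97 and 4.31 FPKM in the rpFSH pigs. All rpFSH pigs but 1 stood above every control, and rpFSH replicate 1, the lowest for 5 of the 8 immediate early genes, was the highest here. The log2 ratio was 1.67 and the limma difference 0.95 ± 0.30 (limma P = 0.00890, adjusted p = 1.00, exact permutation p = 0.0317, DESeq2 adjusted p = 0.0381), and it was called in 10 of 10 analyses with 1 pig left out.

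The other 3 genes with P under 0.05 were named after their values were seen and did not pass the fold limit on FPKM. FOSL2, an AP-1 protein of the FOS family, had a log2 ratio of 0.96 (limma P = 0.0252, exact permutation p = 0.0476), and its 2 highest values, 20.7 and 23.7 FPKM, were in rpFSH replicates 1 and 4, both among the pigs with high STAR. KLF2, a zinc finger factor of the vessel wall, had a log2 ratio of 0.95 (limma P = 0.0453, exact permutation p = 0.111), and DUSP5, a phosphatase that switches off nuclear ERK, had 0.74 (limma P = 0.0263, exact permutation p = 0.0476). Each had a limma adjusted p of 1.00. On the counts FOSL2 and KLF2 passed the fold limit and were called by edgeR (log2 fold changes of 1.01 and 1.02) and by DESeq2 (1.02 and 1.03).

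None of the regulators that act on these genes was called. All 24 genes for SRF, its ELK and MRTF cofactors, CREB with its coactivators, and the kinases above them were tested. Of these, 0 were called DE and 0 had an unadjusted limma P under 0.05, with a median log2 ratio of 0.03. Over all tested loci 1.13% were called and 3.03% had such a P, so a list of 24 can well hold 0. By DESeq2 and edgeR 0 were called as well (3.47% and 3.12% of all tested loci). The 2 most abundant were ELK4 at 11.7 ± 1.02 and 13.2 ± 1.61 FPKM (log2 ratio 0.18, limma P = 0.174, exact permutation p = 0.0952) and MAPK14, the p38 kinase, at 13.2 ± 2.70 and 12.2 ± 2.46 FPKM (-0.11, limma P = 0.540), control before rpFSH. Of 18 dimer partners, corepressors and receptor partners, 0 were called by limma, edgeR or DESeq2 and 1 had a limma P under 0.05, beside 3.03% of all tested loci. This was ATF4, the factor of the integrated stress response, at 16.9 ± 2.23 and 11 ± 5.62 FPKM (log2 ratio -0.62, limma P = 0.0356, exact permutation p = 0.0794). CEBPB, a leucine zipper factor of the LH response, had a log2 ratio of 0.13 (limma P = 0.667, exact permutation p = 0.627) and was highest in control replicate 2 and rpFSH replicate 1, at 28.1 and 25.3 FPKM.

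Heat shock genes, which respond to stress and to handling of tissue, gave 0 DE genes by limma among 11 tested of 13 listed. A limma P under 0.05 was reached by 0, and the median log2 ratio was -0.00. Over all tested loci 1.13% were called and 3.03% had such a P, so a list of 11 can well hold 0. HSPA8 stood at 81.5 ± 19.6 and 67.2 ± 33.7 FPKM (limma P = 0.262, exact permutation p = 0.317) and HSPB1 at 83.3 ± 37.6 and 91.0 ± 76.6 FPKM (limma P = 0.914). Neither DESeq2 nor edgeR called a heat shock gene. The part of tissue handling in the spread between pigs was not tested.

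Genes of the ovulatory response, several of which are targets of these factors, gave 0 DE genes by limma, edgeR or DESeq2 among 13 tested of 15 listed. Over all tested loci these called 1.13%, 3.12% and 3.47%, so a list of 13 can well hold 0. The median log2 ratio was -0.23. An unadjusted limma P under 0.05 was found for 2 genes, both higher, beside 0.817% of all tested loci in that direction. ADAMTS1, a protease that remodels the matrix of the ovulating follicle, measured 7.13, 5.15, 12.9, 5.64 and 6.55 FPKM in the control pigs and 8.41, 14.6, 14.0, 13.7 and 17.3 FPKM in the rpFSH pigs. Only control replicate 3 reached into the rpFSH range, above rpFSH replicate 1 (log2 ratio 0.87, limma P = 0.00591, adjusted p = 1.00, exact permutation p = 0.0159). RUNX1, a transcription factor of the ovulating follicle named after its values were seen, stood at 2.72 ± 0.664 and 4.46 ± 0.658 FPKM (log2 ratio 0.71, limma P = 0.00219, adjusted p = 1.00, exact permutation p = 0.0159, DESeq2 adjusted p = 0.0161). Both stayed below the fold limit, and 1 control pig overlapped the rpFSH range for each.

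**Figure D4:**
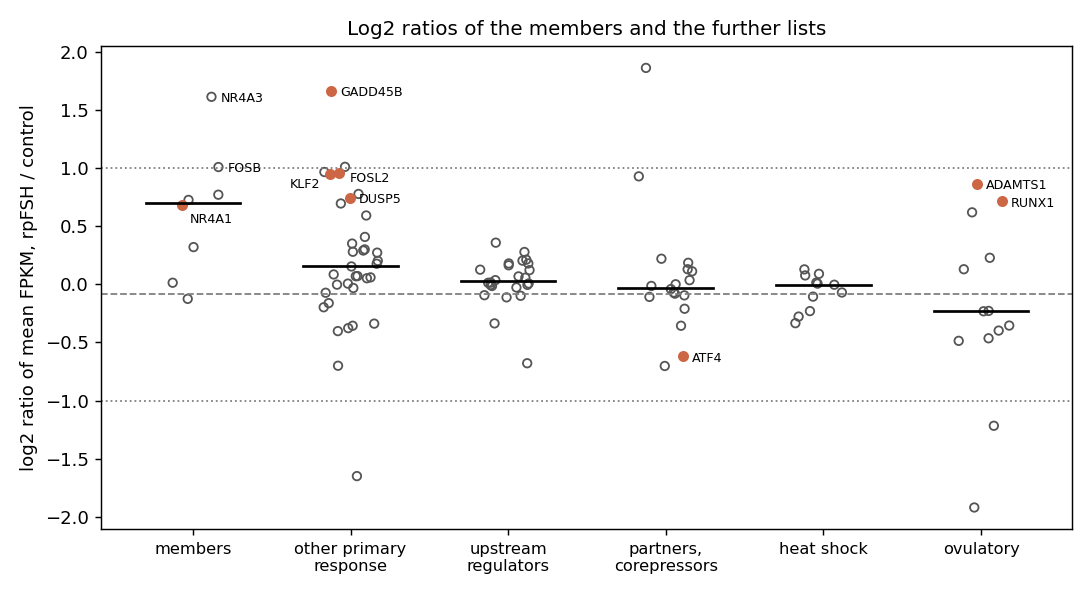
Log2 ratio of the group mean FPKM (rpFSH over control) of the 8 tested immediate early genes and of the genes of 5 further lists. Filled points had an unadjusted limma P under 0.05, solid bars are the medians of each list, the dashed line is the median of all tested loci (-0.08) and the dotted lines are the fold limits of 1 and -1, which GADD45B passes as the only filled point.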

How the data were processed

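Ovary RNA of 10 gilts was sequenced, 1 library per pig, in 2 groups of 5 taken from the sample labels. Per the methods and the submitters' processing notes, the authors mapped reads to Sscrofa11.1 with HISAT2 and assembled loci with StringTie. The notes give the versions, HISAT2 2.0 and StringTie 1.3.0. A further mapper is Bowtie 0.12.2 in the notes and Bowtie2 in the methods. The methods describe rRNA removal and a HiSeq instrument, and the labels poly(A) selection and a NovaSeq instrument. The deposited table gives FPKM per locus and pig, with 0.0001 as its floor, as estimated by the authors. It also holds deposited whole-number counts, whose making is not given in the sources used here.

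The authors compared groups with Ballgown. Here limma 3.58.1 (lmFit, eBayes with trend, two-sided, R 4.3.3) was fitted to log2 (FPKM + 1) of 15170 protein-coding loci whose FPKM averaged 0.1 or more, with Benjamini-Hochberg adjustment over all of them. A fold change on this scale with the pseudocount of 1 is understated for low genes, so the log2 ratio of mean FPKM is given too. Alternatives were DESeq2 1.42.0 and edgeR 4.0.16 (TMM, quasi-likelihood test) on the counts, quantile normalization, upper-quartile scaling, pseudocounts of 0.1 and 0.01, an average FPKM of 1 or no filter, an ordinary linear model, the limma coefficient or the ratio of medians as the fold, a replicate block and leaving out pigs. Single genes were compared by a two-sided exact permutation test over 252 assignments (smallest p 0.00794), and correlations with 100000 permutations (Python 3.11.15, scipy 1.17.1). The scripts were tested on simulated data.

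The genes, lists and tests were chosen with earlier results of these data known. Named genes were all members, the called genes of each further list (or its 2 most abundant genes where none was called) and the 8 loci with the most similar pattern. Nothing in the labels pairs the animals, and same-numbered pigs had correlations of -0.41 to 0.11 between their deviations from the group means. Depth was 64873797 to 75114003 counts per pig, which limits only the lowest loci. P-values measure the spread between these pigs. Positions are those of the deposited table, and names were matched through Ensembl and RefSeq tables of Sscrofa11.1. Promoter and protein sequences were not analysed here.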

Additional observations from a re-analysis of the deposited data

Results flagged for a closer look

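Within groups of 5 pigs, 4 of the 18 gene-and-group sets examined had 1 pig far from the others, that is, a gap to the nearest pig above 0.71 of the whole range of the group, both taken on log2 (FPKM + 1). Chance gives about 1 in 20 such sets. FOS in rpFSH replicate 1 stood at 11.3 FPKM against 25.3 to 29.8 in the other rpFSH pigs, a gap of 0.829 of the range on that log2 scale. EGR1 in the same pig stood at 13.5 FPKM against 22.6 to 24.2, a gap of 0.88. NR4A3 in control replicate 5 stood at 1.72 FPKM against 0.225 to 0.509 in the other controls, a gap of 0.738, and IER2 in control replicate 2 at 20.6 FPKM against 13.5 to 15.2, a gap of 0.729. These are 3 of the libraries whose marker sums stood apart, and the part of their cell composition in these values was not tested.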

How the results depend on the processing

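Of 192 values of the 8 genes under 24 alternatives, 172 kept their direction and their call, 11 were called where they had not been, and 9 changed sign. The number of the 8 genes called DE, 0 in the report, was 1 under DESeq2, quantile normalization and upper-quartile scaling (NR4A3), 1 with the ratio of medians (NR4A1), 1 with the replicate block (NR4A3) and 1 without control replicates 2 and 5. It was 3 without control replicate 2 and rpFSH replicates 1 and 4, a choice made after seeing the data, and ranged from 0 to 1 with 1 pig left out, reaching 1 without control replicate 5 or without rpFSH replicate 1. Of all 15170 tested loci, 172 (1.13%) were called in the report. The same count was 526 under DESeq2, 174 under quantile normalization, 165 under upper-quartile scaling and 163 with the ratio of medians. This count was 167 with the replicate block, 374 without control replicates 2 and 5, and 150 without the 3 pigs just named. Without control replicate 5 the count was 197, and without rpFSH replicate 1 it was 167. The replicate numbers pair no animals, and the block called GADD45B as its 1 gene among the other primary response genes.

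The log2 ratio of EGR1 ranged from -0.15 to 0.206 with 1 pig left out, below 0 without control replicate 3 or 5 and without rpFSH replicate 2, 3, 4 or 5, and was -0.19 without control replicates 2 and 5 together. That of IER2 turned to 0.0018 without control replicates 2 and 5 and to 0.021 without the 3 pigs of high STAR. The number of other primary response genes called, 1 in the report, was 5 under DESeq2, 4 under edgeR and upper-quartile scaling, 3 under quantile normalization and without the 3 pigs, 2 without control replicates 2 and 5, 0 with the limma coefficient as the fold change, and 1 to 3 with 1 pig left out. Among partners and corepressors 0 became 1 with no filter, with either smaller pseudocount, with upper-quartile scaling and without control replicates 2 and 5, 2 with quantile normalization and without the 3 pigs, and 0 to 2 with 1 pig left out. Among ovulatory genes it became 1 with the ratio of medians (ADAMTS1) and 0 to 1 with 1 pig left out. Over all loci, 172 calls became 526 under DESeq2, 473 under edgeR, 17 with the limma coefficient, 63 at a mean FPKM of at least 1, 268 with no filter, 83 with the ordinary linear model, 374 without control replicates 2 and 5, and 142 to 366 with 1 pig left out. The median r between the 8 genes was 0.40 to 0.64 with 1 pig left out. Upstream regulators and heat shock genes had 0 calls throughout. The causes were not tested.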
